A study of Rattus norvegicus with 8 samples.

Results

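Of 57296 spinal cord cells within the limits on depth and mitochondrial RNA, 133 cells carried the combination of transcripts that marks an astrocyte in the rule used here. A cell was selected when it held at least 1000 unique molecular identifiers (UMIs, each marking 1 captured RNA molecule) with at most 10% of them on mitochondrial genes, at least 1 UMI of Aqp4, at least 3 UMIs summed over Gfap, Gja1 and Slc1a2, at most 1 UMI of Mag and Mog, at most 1 UMI of Olig1 and Olig2, and at most 2 UMIs of Tyrobp. The cells were thus chosen on measured values, and the levels of these 9 genes describe the choice and are no result. The deposited matrices held 68658 cells in all.

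Astrocytes are the glial cells that take up glutamate and potassium, move water at the blood vessel wall through the channel aquaporin-4 (Aqp4) and couple to one another through connexin 43 (Gja1). After a contusion they become reactive, which is classically seen as more of the intermediate filament proteins Gfap and vimentin, and near the lesion they divide and form a border around infiltrating immune cells and fibroblasts. Ependymal cells, the ciliated cells that line the central canal, share several transcripts with astrocytes, among them those of Aqp4 and Gja1.

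Cells came from female Wistar rats that were 8 weeks old according to the labels. A 10 g weight was dropped on the exposed cord at T9 from a height of 12.5 mm (mild), 25 mm (moderate) or 50 mm (severe), and sham rats underwent laminectomy without a weight drop. At 7 days, 10 mm of cord centred on the lesion was dissociated, and each of the 4 groups has 2 droplet libraries, called 1 and 2 after their labels. The number of cords sequenced equals that of the libraries, and the p-values below measure the spread between these libraries. The deposited libraries held between 31482153 and 131045446 UMIs.

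The selected cells were few in every library. Sham 1 had 14 and sham 2 had 8, mild 1 had 7 and mild 2 had 5, moderate 1 had 30 and moderate 2 had 28, and severe 1 had 14 and severe 2 had 27. Their median depth was 15755 UMIs over 3751 detected genes per cell, with a range from 2079 to 52362 UMIs, against a median of 9814 UMIs over all cells within the limits. Summed over a library, they gave between 61007 UMIs in sham 2 and 622797 UMIs in severe 2. A doublet score placed 5 of the 133 among the 7.7% of highest score in their library. Between libraries, 555 of 68095 distinct barcodes occurred more than once, 4 selected cells had a barcode that another library also held, and 0 barcodes belonged to selected cells of more than 1 library.

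The limits of the rule decided most of the number. UMIs of Aqp4 were found in 388 cells, and 240 of these also passed the sum over Gfap, Gja1 and Slc1a2. Of the 240, the limit on Tyrobp removed 67, that on Olig1 and Olig2 removed 49 and that on Mag and Mog removed 17, and a cell past more than 1 limit is counted under each. The threshold on Aqp4 lay in the densest place, since 39 cells had exactly 1 UMI and 1700 cells that met every other limit had 0. On the sum of Gfap, Gja1 and Slc1a2, 8 cells lay at 3 UMIs just inside and 7 at 2 UMIs just outside. For Tyrobp, 23 cells lay at 2 UMIs just inside and 10 at 3 UMIs just outside.

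The share of selected cells among all cells within the limits lay between 0.0592% and 0.430%. It was 0.152% in sham 1 (95% Wilson interval 0.0903 to 0.254) and 0.302% in sham 2 (0.153 to 0.595). The mild libraries had the lowest shares, 0.0934% (0.0452 to 0.193) and 0.0592% (0.0253 to 0.138). The moderate libraries had 0.276% (0.194 to 0.394) and 0.430% (0.298 to 0.620), and the severe libraries had 0.351% (0.209 to 0.588) and 0.333% (0.229 to 0.484). These intervals cover counting error only. As group means, the shares were 0.227% ± 0.107 (SD, n = 2) in sham, 0.0763% ± 0.0242 (SD, n = 2) in mild, 0.353% ± 0.109 (SD, n = 2) in moderate and 0.342% ± 0.0124 (SD, n = 2) in severe. The mild libraries lay below all others, while sham 2 lay within the range of the moderate and severe libraries.

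**Figure D1:**
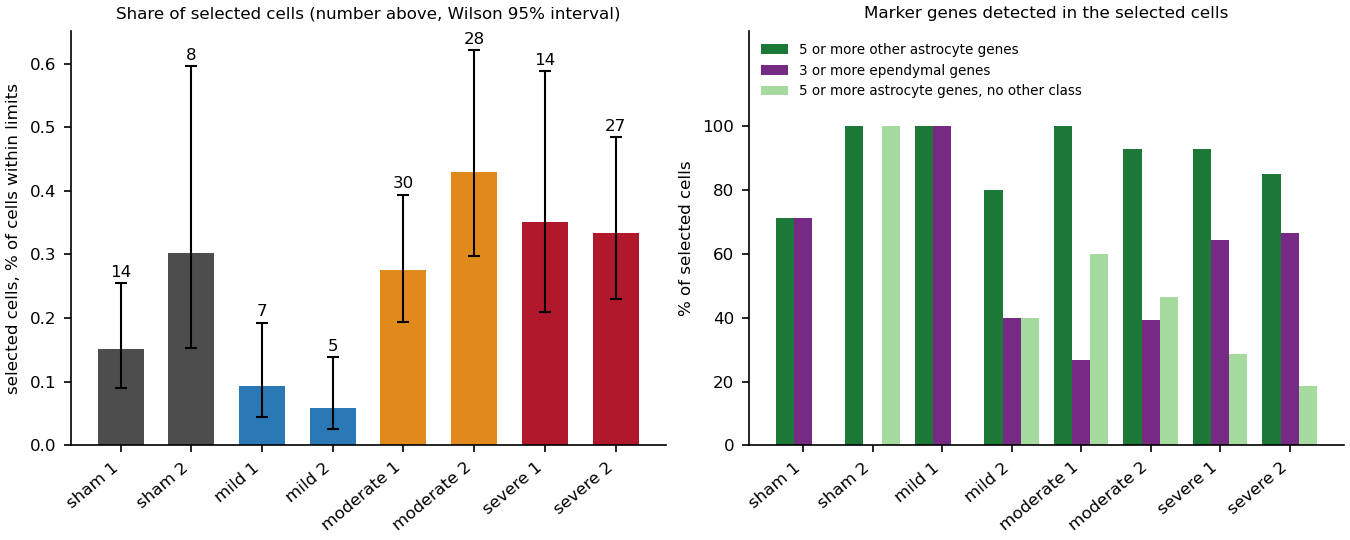
Left, the selected cells as a percentage of cells within the limits in each library, with Wilson 95% intervals and the number of cells above each bar. Right, the percentage of the selected cells with 5 or more of 20 further astrocyte genes, with 3 or more ependymal genes, and with 5 or more astrocyte genes but no other class. The mild libraries have the lowest shares, and all 8 cells of sham 2 but 0 of 14 cells of sham 1 belong to the last category. Gene counts per cell are not adjusted for depth.

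Set against the drop height, with sham at 0, the share gave a Spearman's rho of 0.586 (exact permutation p = 0.153, adjusted p = 0.246 over 3 tests) and a Pearson's r of 0.549 (exact permutation p = 0.164, adjusted p = 0.246) over 8 libraries, two-sided. Without the 2 libraries farthest from the median height, which were both severe libraries and so the whole severe group, rho was 0.239 and r was 0.398. The mean log2 share of injured libraries differed from that of sham libraries by -0.05 (exact permutation p = 1, two-sided, where the design allows no p below 0.0714). No relation of the share to injury was therefore shown at this number of libraries. The share depends on every other cell in the suspension: cells with more than 2 UMIs of Tyrobp, a marker of microglia and other myeloid cells, made up 65.8% of cells in sham 1, 90.9% in sham 2 and between 66.2% and 83.2% in the injured libraries. With only the cells of at most 2 UMIs of Tyrobp in the denominator, r became -0.14 while rho was 0.15, and with every cell thinned to 3000 UMIs before the selection r was -0.23 and rho was -0.05. In dissociated tissue, fewer recovered cells and less RNA per cell cannot be told apart when a cell is recognised by its transcripts.

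The name astrocyte held for part of these cells. At least 5 of 20 astrocyte genes that the rule did not use were detected in 121 of the 133. The 14 ependymal genes in the table, most of them parts of motile cilia, were detected at 3 or more per cell in 65 of the 133. Fibroblast genes reached 3 or more in 12 cells and endothelial genes in 1. Cells with 5 or more astrocyte genes and none of these other classes numbered 50, and they were spread unevenly: 0 of 14 in sham 1, 8 of 8 in sham 2, 0 of 7 and 2 of 5 in mild, 18 of 30 and 13 of 28 in moderate, and 4 of 14 and 5 of 27 in severe. The sham libraries stood apart most, one holding none of these cells and the other holding nothing else. These gene counts were not adjusted for depth, whose median ran from 6671.5 UMIs in sham 2 to 22493.5 UMIs in severe 1. A severe 2 cell of 39129 UMIs had 5 ependymal genes at 1.79 UMIs per 10000. A sham 2 cell of 5221 UMIs had 1 such gene at 3.83 UMIs per 10000. The part of depth in the split was not tested. For these reasons the 133 cells are called the selected cells below and not astrocytes.

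Cells with more than 2 UMIs of Tyrobp served as a background for such counts. Whether transcripts of other classes in them came from free RNA in the droplets was not tested. Among cells with more than 2 UMIs of Tyrobp, between 0.0775% and 0.366% per library had 3 or more ependymal genes at median depths of 3054 to 16463 UMIs, which were not matched to the selected cells. Of the selected cells, 65 of 133 had as many, but 0 of 8 in sham 2. The astrocyte genes were less specific. Oligodendrocyte precursors, taken as cells with at least 1 UMI of Pdgfra, at least 2 of Olig1 and Olig2, at most 1 of Mag and Mog and at most 2 of Tyrobp, reached 5 or more of the 20 genes in 47.8% to 85.2% of cells per library.

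Slc1a2, the main glutamate transporter of astrocytes, was at 0 in 119 of the 133 cells and gave 28 UMIs in all. Gfap gave 4286 UMIs in 112 cells, Gja1 gave 928 UMIs in 121 cells and Aqp4 gave 970 UMIs. To compare detection at 1 depth, each cell was thinned to 1000 UMIs. Gfap was then found in 46.6% of the selected cells (84.2% unthinned) and in 1.23% of 4000 cells with more than 2 UMIs of Tyrobp, which should lack it. Slc1a2 was found in 3.01% against 0%, Mlc1, whose membrane protein sits at the astrocyte endfoot, in 40.6% against 0.025%, and Fabp7, a fatty acid carrier of radial glia and astrocytes, in 79.7% against 1.62%. Gfap and Slc1a2 are genes of the rule, so their shares describe the choice. Those of Mlc1 and Fabp7, which it did not use, lay above the shares in the cells with more than 2 UMIs of Tyrobp.

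**Figure D2:**
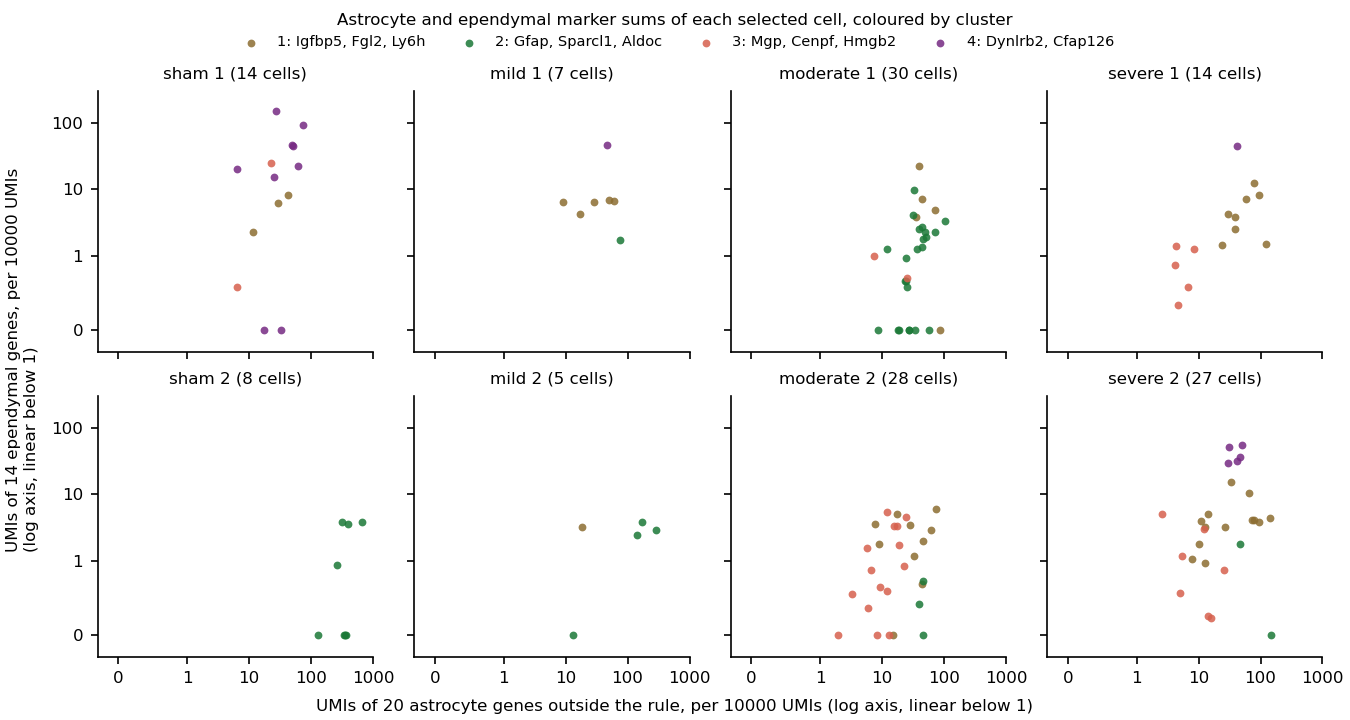
Each point is 1 of the 133 selected cells, one panel per library. The horizontal axis gives the UMIs of 20 astrocyte genes outside the rule and the vertical axis those of 14 ependymal genes, both per 10000 UMIs of the cell, on log axes that are linear below 1, and colours give the cluster. The cells of sham 2 lie at the right with few ependymal UMIs, while 9 of the 14 cells of sham 1 belong to the cluster led by Dynlrb2 and Cfap126.

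Clustering of the 133 cells by their own variable genes gave 4 groups, described here without a test because their genes formed them. The first, of 45 cells, was led by Igfbp5, Fgl2 and Ly6h and also by Krt8, a keratin of simple epithelia. Of its cells, 33 had 3 or more ependymal genes and 43 had 5 or more astrocyte genes. It drew on 7 libraries, with 13 cells from severe 2, 10 from moderate 2 and 8 from severe 1. It stayed unnamed.

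The second, of 41 cells, was led by Sncg, Gfap, Sparcl1, Cxcl14, Ccl2, Fn1, Ccl7, Fabp5, Aebp1, Agt, Lcat and Aldoc. In it 18 of the 20 further astrocyte genes were higher in pooled UMIs than in the other cells, and it is called astrocyte-like. Cell by cell the gap was small: the median of these genes was 46.2 UMIs per 10000 here. It was 35.4 in the first group, 8.34 in the third and 41.3 in the fourth. The name is for the group as a whole, and a finer clustering, given at the end, set apart 13 cells that it does not describe. Of the 12 listed genes of microglia and macrophages 9 were higher in it too, against 1, 3 and 1 in the first, the third and the fourth group. As a description of genes the rule used, all 14 cells with a UMI of Slc1a2 were in it, and Gfap reached 6933 CPM (UMIs of the gene per 1000000 summed UMIs of the cells) against 548 in the first group. It took 23 of its cells from moderate 1, 8 from sham 2, 4 from mild 2 and 3 from moderate 2. Severe 1 and sham 1 gave 0 cells, and severe 2 gave 2.

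The third, of 31 cells, was led by Mgp, Col1a1 and the cell division genes Cenpf, Hmgb2, Top2a and Cdk1. At least 5 of 14 proliferation genes were found in 29 of its cells, and 7 had 3 or more fibroblast genes. Its median depth of 27358 UMIs was the highest of the 4 groups, and 15 of its cells came from moderate 2. Gfap was at 213 CPM and Aldoc at 66.1 CPM. It stayed unnamed, because its leading genes were those of division and of fibroblasts. The fibroblast genes came from few of its cells: Mgp was found in 11 of the 31, Col1a1 in 13 and Dcn in 6. A sham 1 cell with 1728 fibroblast UMIs (330 per 10000) and a moderate 2 cell with 1234 (465 per 10000) gave most of them.

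The fourth, of 16 cells, was led by Pf4 and the ciliary genes Dynlrb2, Cfap126 and Tmem212, with the neutrophil genes S100a9 and S100a8 also among its leading genes. It is called ependymal-like: 11 ependymal genes were raised in it and 14 of its cells had 3 or more. Sham 1 gave 9 of the 16 and severe 2 gave 5. Dynlrb2 was at 1008 CPM here and at 5.99 CPM in the astrocyte-like group.

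**Figure D3:**
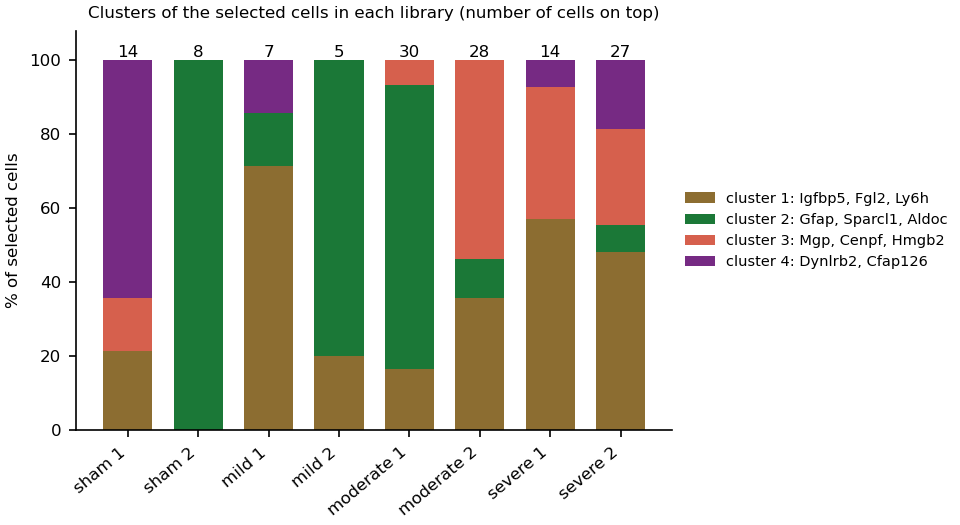
Stacked bars give the percentage of the selected cells of each library in the 4 clusters, with the number of cells on top. Cluster 2, called astrocyte-like as a whole, holds 8 of 8 cells of sham 2 and 23 of 30 of moderate 1, and 0 of 14 in both sham 1 and severe 1. A finer clustering set apart 13 of its cells that the name does not describe, 11 of them from moderate 1.

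The libraries differed in their clusters, and levels summed per library also varied widely within a group. Whether the first accounts for the second was not tested. Gfap was at 600 and 11195 CPM in sham, 1931 and 10457 in mild, 3606 and 854 in moderate, and 362 and 809 in severe. Sham 2 and mild 2 were the highest and severe 1 the lowest, and the sham pair differed 18.7-fold. Aqp4 was at 187 and 6196 CPM in sham, 298 and 578 in mild, 507 and 248 in moderate, and 125 and 140 in severe, so that sham 2 alone stood 33.1-fold over its pair. Gja1 was at 708 and 2869 CPM in the sham libraries and between 132 and 457 CPM in the 6 injured ones. These genes chose the cells, and no test is given for them.

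The further astrocyte genes had the same unevenness. Clu, the secreted chaperone clusterin, was at 1346 and 18080 CPM in sham, 1399 and 2740 in mild, 766 and 754 in moderate, and 2030 and 1769 in the severe. Sham 2 was the highest and the other 7 libraries overlapped. Atp1b2, a subunit of the glial sodium pump, was at 170 and 3590 CPM in sham, 217 and 609 in mild, 138 and 49.9 in moderate, and 102 and 56.2 in severe. Summed over the 20 genes, the level was 2914 CPM in sham 1, 36307 in sham 2, and between 1940 and 7930 in the injured libraries.

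Markers of other cells moved with the same libraries. The 14 ependymal genes summed to 2279 CPM in sham 1, where Dynlrb2 was the most abundant, against 148 CPM in sham 2 and between 176 and 857 CPM in the injured libraries. The 7 fibroblast genes summed to 6120 CPM in sham 1 and 2944 CPM in moderate 2, led by Mgp, and to at most 136 CPM elsewhere. A single cell gave 1728 of the 1764 fibroblast UMIs of sham 1 and another gave 1234 of the 1592 of moderate 2, and without them the sums were 153 and 696 CPM. The 8 neutrophil genes summed to 1388 CPM in sham 1 and to at most 36.1 CPM elsewhere. S100a9 made up most of them, and its 912 CPM in the selected cells of sham 1 was 2.22% of the 41091 CPM in all other cells of that library. The comparisons below were also fitted without cells of 2 or more ependymal UMIs, and without cells carrying 3 or more ependymal, fibroblast or endothelial genes. The part of the other markers was not tested.

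Compared with all other cells of the same library, a description that the choice of cells partly fixes, the selected cells of the 3 libraries with at least 20 of them had Vim and Lgals1 among their 20 genes of highest level. Vim was at 24722 CPM ± 2440 (SD, n = 3) there, 4.66-fold over the other cells, and Lgals1, a galectin, was at 5850 CPM ± 1663 (SD, n = 3), 4.70-fold over them. By ratio, the leading genes were Aqp4 itself at 242-fold, Sncg at 233-fold, Mlc1 at 173-fold, Dynlrb2 at 140-fold and the urea transporter Slc14a1 at 106-fold. For 12 of the leading 20, leaving out 1 of the 3 libraries moved the ratio by over 1.5 times. Sncg was at 123-fold without moderate 1, Dynlrb2 at 45.8-fold, Rsph1 at 31.95-fold and Stmn2 at 18.5-fold without severe 2, and Aqp4 and Slc14a1 were at 376-fold and 168-fold without moderate 2. Of the leading 20, the genes Dynlrb2, Rsph1 and Enkur were on the ependymal list, and Stmn2, a gene of growing neurites, stood at 32.9-fold. Thbs2, a thrombospondin, stood at 42.4-fold and the hyaluronan-binding Tnfaip6 at 23.9-fold.

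Stmn2 was found in 90 of the 133 cells, and 32 cells had 3 or more of the 12 neuronal genes, 0 having 5 or more. Among oligodendrocyte precursors, 21.0% to 59.3% per library had 3 or more. Its level was 371 and 115 CPM in sham, 496 and 518 in mild, 545 and 592 in moderate, and 877 and 1996 in severe, and all 6 injured libraries lay above both sham libraries. After thinning to 1000 UMIs it was in 30.8% of the selected cells and in 0.2% of the cells with more than 2 UMIs of Tyrobp. The fit gave injured over sham a log2 difference of 1.51 (SE 0.58, edgeR adjusted p = 0.381), which did not pass. Of the same list, Snap25 and Rbfox3, which mark mature neurons, had 0 UMIs in the selected cells. Gad1, also on that list, was detected: in 7, 13, 10 and 0 cells of the first to the fourth cluster. Its levels there were 14.4, 47.9, 18.2 and 0 CPM.

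Hox genes, which pattern the body axis, were expressed. Hoxb7 was found in 114 of the 133 cells and was above the other cells in 8 of 8 libraries, at 49.2 to 260 CPM against 3.87 to 27.2 CPM. Hoxc8 was above the other cells in 8 of 8 libraries as well. Of the 22 listed Hox genes in the table, 18 had at least 1 UMI in the selected cells. Oligodendrocyte precursors expressed them as well, with summed Hox levels of 239 to 336 CPM per library against 246 to 749 CPM in the selected cells, and were the higher in sham 2 (286 against 246 CPM).

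**Figure D4:**
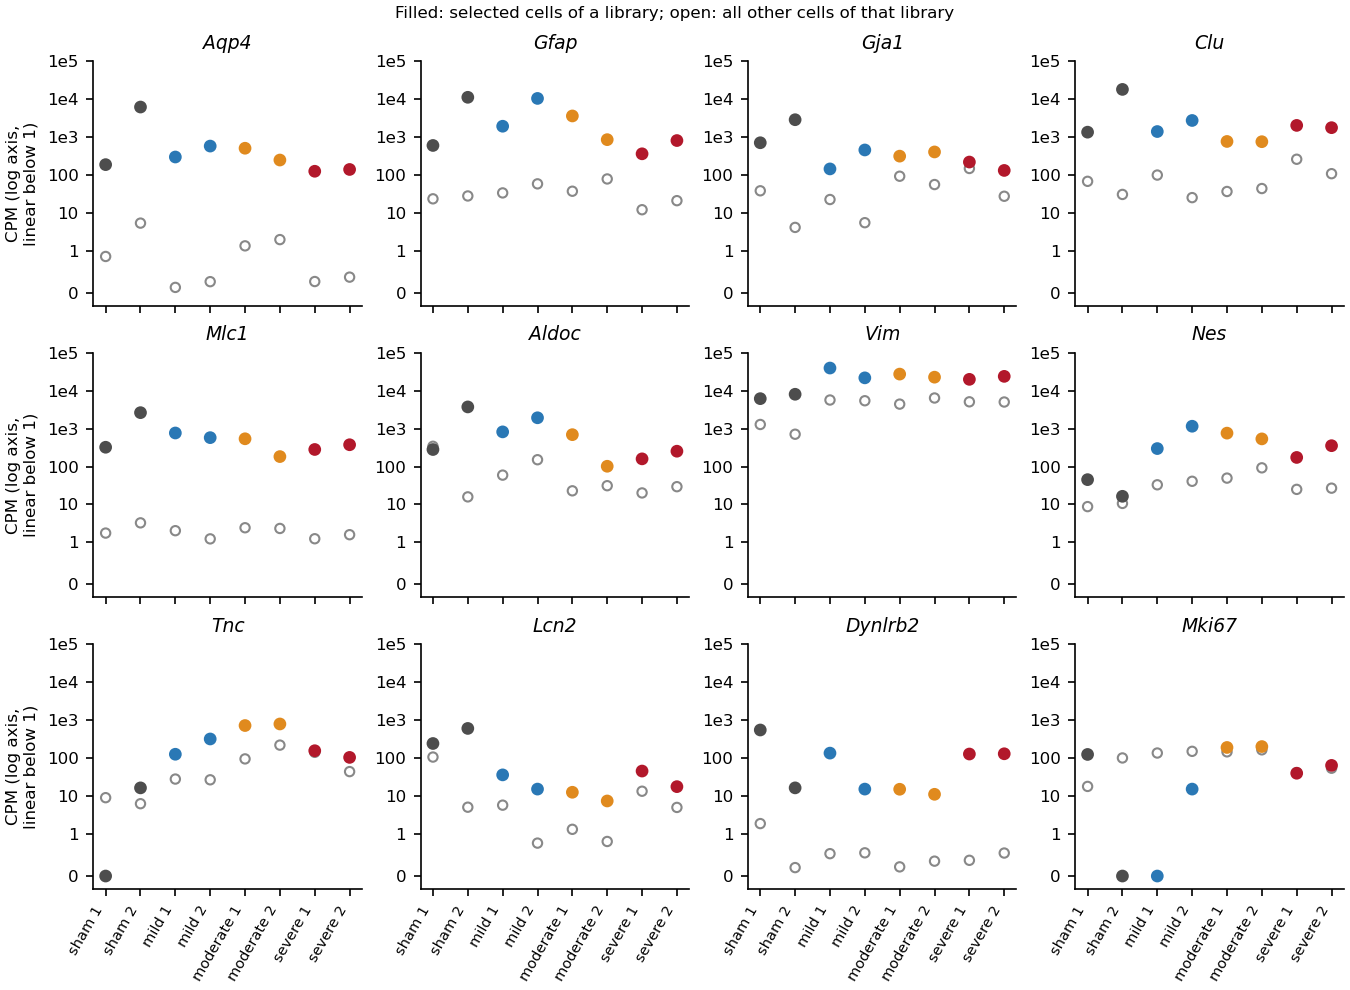
Level of 12 genes in each library, in CPM on a log axis that is linear below 1, with filled points for the selected cells and open points for all other cells of the library. Tnc and Nes are lowest and Lcn2 is highest in the 2 sham libraries, while Gfap, Clu and Aldoc are highest in sham 2 and overlap elsewhere.

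The comparison of degrees of injury asked which genes of the selected cells differed between groups. Counts were summed over the selected cells of a library and tested over 5486 genes with edgeR's quasi-likelihood test. Injured against sham gave 1 gene at an adjusted p under 0.05 (0.0182% of genes tested), and that gene was Lcn2. Moderate against sham gave 2 (0.0365%), which were Lcn2 and Tnc. Mild against sham, severe against sham, severe against mild and severe against moderate gave 0 genes (0%) each, with 418, 634, 406 and 461 genes at an unadjusted p under 0.05 and with 14, 46, 18 and 16 genes called by DESeq2. DESeq2 called 42 genes for injured against sham and 22 for moderate against sham, where unadjusted p-values under 0.05 numbered 610 and 504.

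These counts hung on single libraries. Injured against sham gave 407 genes without sham 1 and 110 without sham 2, 11 without moderate 1, and 0 without mild 1, mild 2 or moderate 2. Moderate against sham gave 268 without sham 1, 129 without sham 2 and 0 without any one of the 6 injured libraries. Mild against sham gave 105 and 32 genes without sham 1 and sham 2, severe against sham 606 and 50, severe against mild 53 and 55, and severe against moderate 83 and 85 genes. Severe against moderate gave 1 gene without severe 1. Each of these fits leaves a group with 1 library, which is assumed to vary like the other groups. Over all 8 libraries the biological coefficient of variation was 40.5%. The gene model AC134224.3, which is unnamed, took 54274 and 118904 CPM of the sham sums and 9589 to 24068 CPM of the injured ones, and its part in the comparisons was not tested.

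Lcn2 encodes lipocalin-2, an iron-siderophore-binding protein that neutrophils store and that reactive astrocytes can secrete. It was at 243 CPM in sham 1 and 606 CPM in sham 2, from 70 UMIs in 8 cells and 37 UMIs in 3 cells. It was at 36.1 and 15.2 CPM in the mild libraries and at 12.6 and 7.40 CPM in the moderate ones. The severe libraries had 45.6 and 17.7 CPM. Both sham libraries thus lay above all 6 injured ones, by 15.6-fold over pooled UMIs (107 against 41 UMIs, 95% interval 10.8 to 23.0, counting error only).

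In the fit, Lcn2 fell by 4.29 on the log2 scale in injured against sham libraries (SE 0.49, edgeR adjusted p = 0.0187), and was lower in 6 of 6 injured libraries. In moderate against sham it fell by 5.42 (SE 0.72, edgeR adjusted p = 0.0425), a call lost without any one of the 6 injured libraries (edgeR adjusted p between 0.0679 and 0.501) and in the fit of these 2 groups alone (0.729). The direction held in all alternatives in which it was tested, which leave out the fit on cells with at least 5 UMIs of Gfap, Gja1 and Slc1a2 and none of the excluded genes and the fit without cells of 2 or more ependymal UMIs, where it did not pass the filter on low counts, but the call on injured libraries was lost without mild 1 (edgeR adjusted p = 0.128), without mild 2 (0.173) and without moderate 2 (0.0667). With the replicate number as a block, Lcn2 kept its call in injured against sham (-4.36, edgeR adjusted p = 0.0316). In moderate against sham it lost it (-5.47, edgeR adjusted p = 0.074). The other cells of sham 1 held 107 CPM of Lcn2 and those of the remaining libraries at most 13.4 CPM. In sham 2 the selected cells had 0 UMIs of the 8 neutrophil genes and Lcn2 at 120-fold over the other cells. The difference of injured from sham libraries without sham 1 was -4.68, where sham 2 is the only sham library. Without sham 2 the difference was -3.60, where sham 1 is the only sham library. Without cells carrying 3 or more ependymal, fibroblast or endothelial genes, mild 1 had 0 cells and mild 2 had 3. The difference of injured from sham libraries was then -6.08 (edgeR adjusted p = 0.0394), and that of moderate from sham was -4.72 and lost its call (edgeR adjusted p = 0.0633).

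Tnc encodes tenascin-C, a matrix glycoprotein that is made at scars. It was at 0 and 16.4 CPM in sham, from 0 and 1 UMIs, and at 126 and 320 CPM in the mild libraries, from 14 and 21 UMIs. It was at 723 and 795 CPM in the moderate libraries, from 288 and 430 UMIs, and at 157 and 104 CPM in the severe ones, from 55 and 65 UMIs. The moderate libraries were the highest, and no injured library overlapped the sham pair. It was detected in 23 of 30 and 22 of 28 cells of the moderate libraries, and in 1 of the 22 sham cells.

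In moderate against sham, Tnc rose by 7.60 on the log2 scale (SE 1.02, edgeR adjusted p = 0.0425), a value that rests on 1 sham UMI. With the replicate number as a block, the rise was 7.52 and its call was lost (edgeR adjusted p = 0.074). The pooled UMIs gave 267-fold (718 against 1 UMI, 95% interval 47.8 to 10562, counting error only). In the fit of all 4 groups, injured against sham gave 6.24 (SE 0.99, edgeR adjusted p = 0.118). Severe against moderate gave -2.30 there (SE 0.61, edgeR adjusted p = 0.342), so neither passed in it. Without cells of other classes, as defined above, injured against sham was 1.72 (edgeR adjusted p = 1), with mild 2 and its 3 cells as the only mild library. The call on the moderate libraries was lost without any one of the 6 injured libraries (edgeR adjusted p between 0.0776 and 0.109), in the fit of these 2 groups alone (0.729), with at least 5 UMIs of Gfap, Gja1 and Slc1a2 and none of the excluded genes required (0.143) and without cells of 2 or more ependymal UMIs (0.145). In the last 2 fits, where sham 1 had 1 and 3 cells left, the difference was 8.46 and 8.61. The difference was 5.60 without sham 1 and 10.89 without sham 2, each against 1 sham library with at most 1 UMI of Tnc. Fitted with moderate and severe libraries alone, severe against moderate was -2.31 and passed (edgeR adjusted p = 0.0176). It was -2.28 with at least 10 cells a library and -2.60 with at least 20, where severe 2 was the only severe library. DESeq2 called injured against sham (6.23, DESeq2 adjusted p = 0.00059) but not severe against moderate (-2.30, DESeq2 adjusted p = 0.105). Tnc was also higher in the other cells of the moderate libraries, at 95.2 and 220 CPM, than in those of sham, at 9.03 and 6.27 CPM. Without cells carrying 3 or more ependymal, fibroblast or endothelial genes the difference was 5.34 (edgeR adjusted p = 0.0515).

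The windows around the starts of these 2 genes are shown because they were the only genes called in the edgeR fit described first. DESeq2 and some other settings called more genes. They run from 250 bases before to 50 after the start in RefSeq on build GRCr8, while the counts were made on Rnor 6.0. Both lie on the minus strand, Lcn2 at chr3:36081731-36082030 and Tnc at chr5:82476082-82476381, and are printed 5′ to 3′ on the gene's strand. Capitals mark matches of the searched letters GGGA and CCC with any 4 bases between them (a form of the NF-kB motif), TTCNNNGAA (a form of the STAT motif) and TATAAA, on both strands.
Lcn2: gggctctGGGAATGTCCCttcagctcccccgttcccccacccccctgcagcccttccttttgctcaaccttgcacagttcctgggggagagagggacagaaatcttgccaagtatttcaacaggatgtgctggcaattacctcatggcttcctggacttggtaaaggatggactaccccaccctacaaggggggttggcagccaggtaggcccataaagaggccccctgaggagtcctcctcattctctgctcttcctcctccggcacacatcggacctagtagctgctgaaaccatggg
Tnc: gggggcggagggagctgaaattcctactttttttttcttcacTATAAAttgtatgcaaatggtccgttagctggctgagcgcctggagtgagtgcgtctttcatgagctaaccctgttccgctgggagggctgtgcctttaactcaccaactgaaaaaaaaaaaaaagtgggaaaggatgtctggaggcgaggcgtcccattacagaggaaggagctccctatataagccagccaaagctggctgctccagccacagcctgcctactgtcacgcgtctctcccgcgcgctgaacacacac

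The Lcn2 window held GGGAATGTCCC from its base 8, a match of a motif that 4.99% of 33469 promoter windows hold. The Tnc window held TATAAA from its base 43, as 14.2% of windows do. TTCNNNGAA, found in 8.87% of windows, was in neither. These are matches of letters and say nothing of binding.

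No filament gene passed the test. Vim was at 6179 and 8065 CPM in sham, 39673 and 21857 in mild, 27459 and 22775 in moderate, and 19962 and 23931 in severe. All 6 injured libraries lay above both sham libraries, with a log2 difference of 1.86 (SE 0.78, edgeR adjusted p = 0.417). Nes, the filament nestin of immature glia, was at 45.1 and 16.4 CPM in sham, 298 and 1157 in mild, 761 and 536 in moderate, and 174 and 355 in severe, again without overlap (log2 difference 3.71, SE 0.74, edgeR adjusted p = 0.19). Pooled UMIs of Nes were 11.7-fold higher in injured than in sham cells (984 against 14 UMIs, 95% interval 6.97 to 21.6, counting error only). Vim was also higher in the other cells of the injured libraries, at 4432 to 6430 CPM against 1286 and 712 CPM in sham.

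S100a10, a calcium-binding protein listed as raised in astrocytes after ischaemia, was at 1350 and 1459 CPM in the sham and between 1724 and 4233 CPM in the injured libraries, without overlap. Tm4sf1, a surface tetraspanin of the same list, was at 3.47 and 0 CPM in the sham and between 30.4 and 259 CPM in the injured libraries, from 1 UMI against 295. Neither passed (log2 difference 1.25, SE 0.54, edgeR adjusted p = 0.425 for S100a10, and 4.96, SE 0.85, edgeR adjusted p = 0.119 for Tm4sf1). They were the 2 of 7 tested genes of that list that lay above both sham libraries, and 3 of the 7 had a difference above 0.

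Such separation of all 6 injured from both sham libraries was common. On the TMM-scaled CPM of the fit, it was found for 343 of the 5486 genes above sham (6.25%) and for 294 below (5.36%). Among the genes reported as raised in reactive astrocytes of any kind, 8 were tested without those of the rule: on that scale Vim lay above both sham libraries in all injured ones, while Lcn2, Hspb1 and Cp lay below, and Lcn2 was the 1 gene that passed. Hspb1, a small heat shock protein, was at 3573 and 5016 CPM in sham and between 875 and 3775 CPM in the injured libraries, so that mild 2 overlapped sham 1 before that scaling. Its log2 difference was -1.01 (SE 0.59, edgeR adjusted p = 0.571).

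Of the lists of astrocyte function, 4 lay to the low side of injured against sham and 3 did not, with 0 genes past the test in any. The median log2 difference was -2.24 over the 16 tested of 20 further astrocyte genes, where 2 were above 0, and -2.05 over 8 genes of ion and water handling, where none was. It was -1.02 over 5 genes of glutamate and GABA handling and -1.13 over 13 lipid genes, against -0.05 over all genes tested. The other 3 medians were 0.01 over 3 genes of junctions and adhesion, 0.40 over 5 synaptogenic genes and 0.56 over 7 trophic factor genes. By TMM-scaled CPM, 4 of the 13 lipid genes lay below both sham libraries in all injured ones. The most abundant lipid genes, Clu, Apoe, Fabp7 and Fabp5, overlapped between groups. Apoe, the lipoprotein of glia, was at 475 and 12507 CPM in the sham and between 333 and 5601 CPM in the injured libraries, below the other cells in 8 of 8 libraries.

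Sham 2 was the library with the highest Clu, Mlc1, Atp1b2 and Slc4a4. Mlc1 was at 323 and 2639 CPM in sham, 767 and 578 in mild, 540 and 183 in moderate and 282 and 376 in severe, with sham 1 inside the injured range. The same held for Slc4a4, a bicarbonate transporter, at 111 and 1819 CPM in sham and between 74.0 and 304 CPM in the injured libraries. Ependymal genes had a median of -1.48 over 9 genes and fibroblast genes one of -4.16 over 6, and sham 1 had the highest sum of both lists, that of fibroblast genes through 1 cell.

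**Figure D5:**
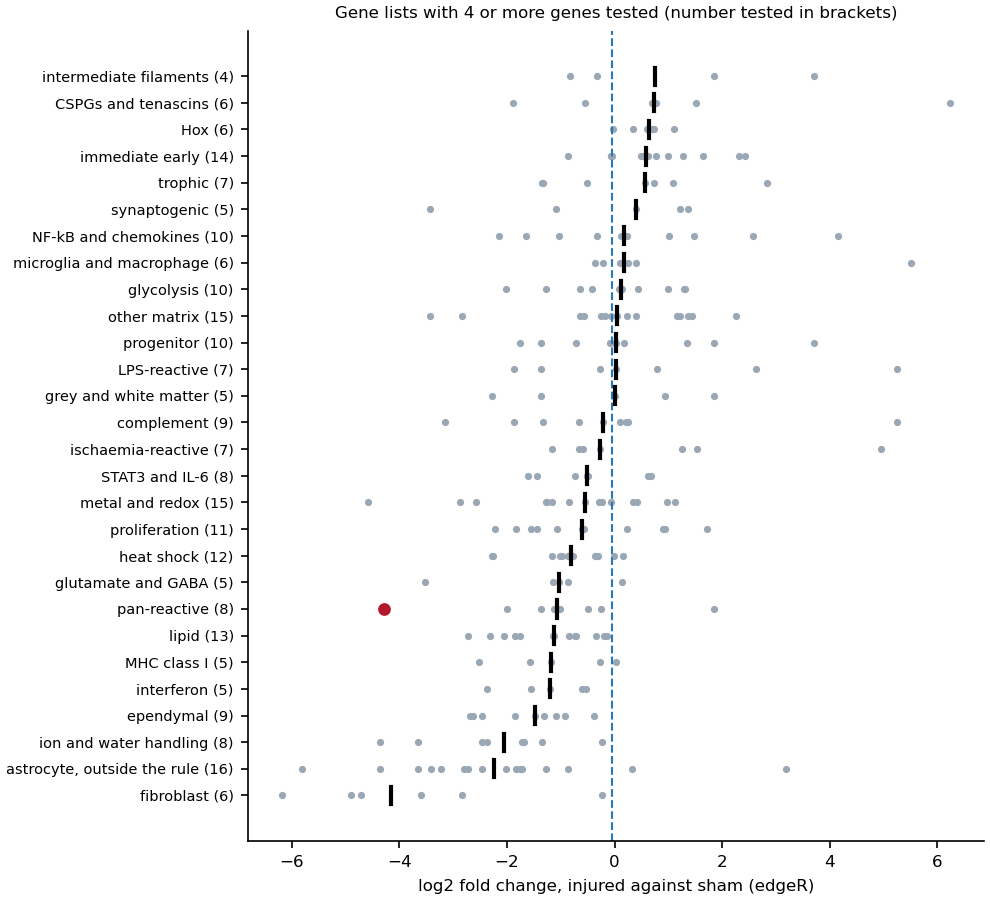
Each point is 1 tested gene of a list and gives its log2 difference of injured against sham libraries in edgeR. Black bars are list medians, the dashed line is the median of all genes tested (-0.05), and the red point is Lcn2, the 1 gene past the test. Fibroblast, astrocyte and ion and water genes lie to the left, and intermediate filament and matrix genes slightly to the right.

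On the high side, the median was 0.76 over 4 intermediate filament genes, 0.73 over 6 proteoglycan and tenascin genes and 0.65 over 6 Hox genes. Of 14 immediate early genes, 10 were above 0 with a median of 0.58. Fos was at 2352 and 148 CPM in the sham and between 766 and 4747 CPM in the injured libraries, so sham 1 lay within the injured range. The lists of endotoxin-raised and ischaemia-raised astrocyte genes had medians of 0.02 over 7 and -0.26 over 7 genes. None of these lists had a gene past the test in injured against sham.

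The sum of the proliferation genes was 2314 CPM in sham 1 and 131 in sham 2, 659 and 578 in mild, 2908 and 3488 in moderate, and 2525 and 2383 in severe. In sham 1 a single cell gave 487 of the 667 UMIs, and without it the sum there was 720 CPM. Mki67, which marks cycling cells, was in 43 of the 133 cells and at 125 and 0 CPM in sham, 0 and 15.2 in mild, 191 and 202 in moderate, and 39.9 and 64.2 in severe. After thinning to 1000 UMIs, Mki67 was in 7.52% of the selected cells and in 5.67% of the cells with more than 2 UMIs of Tyrobp, while Top2a was in 9.02% against 4% and Stmn1 in 43.6% against 16.7%.

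Interferon and antigen presentation genes were present without a group difference past the test. Ifitm3 was above the other cells in 8 of 8 libraries, at 3400 and 1574 CPM in sham and between 822 and 3971 CPM in the injured libraries. B2m, the light chain of class I molecules, was at 2550 and 2737 CPM in the sham and between 776 and 1496 CPM in the injured libraries, without overlap, and the median over 5 class I genes was -1.18. Mt3, a metallothionein of the nervous system, was at 2248 and 4950 CPM in sham and between 623 and 2572 CPM in the injured libraries, above the other cells in 8 of 8 libraries.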

How the data were processed

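The 8 libraries (10x Genomics 3′ kit, 2 per group) were mapped to groups by their labels. The deposited matrices hold raw UMI counts per gene and cell, without normalization. The authors made them with Cell Ranger (5.0.1 per the file headers, another version per the paper's supplementary methods) on Rnor 6.0 per the submitters' notes. Seurat is also named there and was not used here. Counts were read for 32623 genes, and the rule was applied to each cell. Members and gene lists were chosen with earlier results of these data known.

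Counts of the selected cells were summed per library. Genes were kept by filterByExpr and tested with edgeR 4.0.16 (R 4.3.3, quasi-likelihood, TMM, all 4 groups in 1 fit, Benjamini-Hochberg, threshold 0.05), with DESeq2 1.42.0 as an alternative. The planned minimum of 20 cells per library left 3 libraries and no planned comparison, so all 8 were fitted, a choice made after the cell numbers were seen, as was the comparison of severe with moderate. The sums rest on 5 to 30 cells a library. Genes of the rule were left out of list counts. Named genes are those of the rule, up to 4 per list (40 lists) by adjusted p or mean CPM, genes past the threshold with at least 50 CPM and separated groups, and the 20 highest by level and by ratio to other cells. Genes outside it (separated list members such as Cp, and the leading genes of clusters) were named after their values were seen. Some items are not reported here.

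Clusters used Scanpy 1.11.5 and igraph 0.11.9 at resolution 0.4 (alternative 0.8). Doublet scores came from Scrublet in Scanpy, and marked cells were kept. Exact permutation tests used scipy 1.17.1, tables Python 3.11.15, numpy 2.4.6 and pandas 2.3.3, and figures matplotlib 3.10.9. The fit was tested on simulated data. Intervals are 95%.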

Additional observations from a re-analysis of the deposited data

How the results depend on the processing

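Precision was limited by cells: 5 to 30 a library, with 61007 UMIs in the smallest sum. Both sham libraries hold different cells, so their mean describes neither. Arrangements with at least 50 cells a library could not be fitted, and at least 20 cells left both moderate libraries against severe 2 alone. The cause of the changes below was not tested.

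Genes called in injured, mild, moderate and severe against sham, severe against mild and severe against moderate were 1, 0, 2, 0, 0 and 0. DESeq2 called 42, 14, 22, 46, 18 and 16, and no filter on low counts gave 222, 48, 209, 187, 75 and 127. With the groups compared alone, they were 1, 0, 0, 0, 23 and 91. Libraries with at least 10 cells gave 112 for moderate and 39 for severe against sham 1, the only sham library left, and 79 for severe against moderate. At least 20 cells gave 208 for the last, with 1 severe library. Lone libraries are assumed to vary like the others. The stricter gate (at least 5 UMIs of Gfap, Gja1 and Slc1a2 and none of the excluded genes) gave 0 for injured and for moderate against sham and 1 for severe against moderate. Without cells of 2 or more ependymal UMIs, injured against sham gave 2 and moderate 0, and Lcn2 was tested neither there nor under the stricter gate. Without cells of 3 or more ependymal, fibroblast or endothelial genes, an alternative chosen after seeing the data, the 6 counts were 30, 0, 0, 273, 2 and 4. Leaving out each library in turn gave 0 to 407, 0 to 105, 0 to 268, 0 to 606, 0 to 55 and 0 to 85.

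Replicate numbers did not pair the libraries: correlations of deviations between groups ran from -0.33 to 0.15. With the replicate number as a block, the counts were 2, 0, 0, 0, 0 and 1, and Lcn2 and Tnc in moderate against sham each had an adjusted p of 0.074 in edgeR.

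Scaling by library size alone moved the median log2 difference of all genes from 0.02 to 0.12 for moderate against sham, from -0.02 to -0.18 for severe against sham, from 0.02 to -0.15 for severe against mild and from -0.01 to -0.28 for severe against moderate, and moderate against sham then gave 3 genes. Lcn2 in injured against sham kept its sign, from -4.68 to -3.60 with 1 library left out, as did Lcn2 (-5.80 to -4.72) and Tnc (5.60 to 10.89) in moderate against sham.

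The rule gave 41 cells under the stricter gate, 63 after thinning to 3000 UMIs and 58 without cells of other classes, against 133. The share against height reversed after thinning (rho -0.0488, r -0.232), and for r alone with cells of at most 2 UMIs of Tyrobp as denominator (r -0.139, rho 0.146) and without cells of other classes (r -0.041, rho 0.146). With a mitochondrial limit of 20%, r was 0.0082 and rho 0.195. Leaving out a library kept rho between 0.477 and 0.716 and r between 0.478 and 0.703. The log2 difference of injured from sham was -0.0549, and became 0.687 under the stricter gate, -1.15 after thinning, -0.572 with the Tyrobp denominator, -0.537 with a mitochondrial limit of 20% and -0.574 without cells of other classes. It ran from -0.553 to 0.443 with 1 library left out, above 0 without sham 2 (0.443), mild 1 (0.174) or mild 2 (0.305). Thinned to 2000 UMIs, Gfap was found in 57.9% and Stmn2 in 43.6% of the selected cells. At a resolution of 0.8 there were 6 clusters.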

Other observations

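Rplp0, which encodes a ribosomal protein, was at 6307 CPM in the selected cells of sham 1 and 705 CPM in those of sham 2, against 5069 to 10803 CPM in the injured libraries.

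Cells with 3 or more UMIs of Gfap, Gja1 and Slc1a2 and the other limits met but 0 UMIs of Aqp4 were 205 in sham 1, 3 in sham 2, 120 and 52 in mild, 364 and 270 in moderate, and 425 and 261 in severe.

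Sparcl1, an astrocyte matrix gene, was at 38.2 and 5065 CPM in the sham pair, a 133-fold gap, and at 500 and 61.0 CPM in the moderate pair, an 8.19-fold gap. Mgp, a fibroblast gene, was at 3754 and 0 CPM in the sham pair, and at 32.6 and 1420 CPM in the moderate pair, a 43.5-fold gap.

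At the finer resolution the cells of the astrocyte-like cluster formed a group of 28, which held all 8 cells of sham 2, and a group of 13. The latter was led by Ccnd1, Ccl2 and Fn1, and 11 of its cells came from moderate 1. The smaller group had 13 proliferation genes raised against 0 in the larger. Of the further astrocyte genes, 7 were raised in the smaller group and 18 in the larger. Their sum was 2733 CPM in the smaller group and 12167 CPM in the larger. It was 4773 CPM in the group led by Igfbp5, 3946 in the ependymal-like group, and 2351 and 1122 in the others. Of the microglia and macrophage genes, 9 were raised in the smaller group and 7 in the larger. By these genes the name astrocyte-like describes the larger group and not the smaller.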
